A study of Mus musculus with 12 samples.

Results

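The genes described here are 9 that code for enzymes acting on the Notch receptor before and after it meets its ligand: the Fringe sugar transferases *Lfng*, *Mfng* and *Rfng*, the fucosyltransferase *Pofut1*, the proteases *Furin* and *Adam10*, and the gamma-secretase subunits *Psen2*, *Aph1a* and *Aph1b*. They were taken by gene symbol, and each of the 9 has a row among the 28686 symbols of the count table. RNA-seq was performed on the cochlear sensory epithelium of P6 mice to ask how the tissue changes when the Notch ligand JAG1 is removed from maturing supporting cells. The 6 mutants were *Sox2CreER/+Jag1fl/fl* and the 6 controls were *Sox2+/+* littermates, all on a background labelled C57BL/6;129SV, whereas the study's methods name a C57bl6/J line for CreER and an FVB/n line for the floxed *Jag1*. Pups of both genotypes had received tamoxifen at P0 and P1. CreER sits in the *Sox2* locus and acts in supporting cells, so the mutants have 1 intact *Sox2* allele and the controls have 2. The crosses give controls either 1 or 2 floxed *Jag1* alleles, which stay unrecombined without Cre.

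Notch is a receptor that is cut several times on its way to the nucleus. Furin-type convertases cut it in the Golgi, ADAM10 cuts it at the cell surface once a ligand on a neighbouring cell pulls on it, and gamma-secretase then frees the intracellular domain, which binds RBPJ and turns on *Hes* and *Hey* genes. Before that, POFUT1 adds fucose to the receptor's EGF repeats in the endoplasmic reticulum and the Fringe enzymes lengthen that sugar in the Golgi, which changes how strongly the receptor answers Delta and Jagged ligands. In the cochlea *Lfng* is known as a supporting cell transcript, and Notch signalling there sets which cells become hair cells and which become supporting cells.

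Total counts per library lay between 28498549 and 36134983. Levels are given as CPM, a gene's count relative to the total of its library, with the total scaled by the TMM factors of edgeR. *Jag1*, the deleted gene, ran from 83.0 to 118 CPM in the controls with a median of 104 and from 24.2 to 42.9 CPM in the mutants with a median of 37.5, so that no library went against its label. The counts cover the whole gene, including exons that the deletion leaves in place. Defining markers of hair cells and supporting cells were present in every library. The summed level of 12 hair cell markers was 477.7 to 545.6 CPM in controls and 477.1 to 577.7 CPM in mutants, and that of 12 supporting cell markers was 3329 to 3597 CPM and 2770 to 3592 CPM. Transcripts of neurons and Schwann cells differed more. The sum of 12 neuron markers was 117.1 to 271 CPM in controls and 160 to 1331 CPM in mutants, and that of 12 Schwann cell markers was 654.3 to 1715 CPM and 1443 to 6639 CPM. The sum of 12 mesenchyme and fibroblast markers was 15600 to 19690 CPM in controls and 15070 to 15820 CPM in mutants. Transcripts of cells outside the epithelium were thus part of every library. None of these markers was at 0.

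*Lfng* was the member that the test called. It lies on chromosome 5 (GRCm38 chr5:140607320-140615545, plus strand). The stretch upstream of its start is shown because it holds the letters GTGGGAA, the core of the site that RBPJ binds. The sequence is from RefSeq (GRCm38.p6, chr5:140607091-140607290, plus strand), and the capitals mark the match, which begins 109 bases before the RefSeq start.
Lfng: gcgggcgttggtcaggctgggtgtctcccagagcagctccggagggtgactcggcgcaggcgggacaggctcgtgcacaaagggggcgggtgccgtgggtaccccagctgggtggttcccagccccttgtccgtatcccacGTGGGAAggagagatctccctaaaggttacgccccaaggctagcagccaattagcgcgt

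Windows of 300 bases around the start, 250 before and 50 after it, were at hand for 8 of the 9 members, and *Mfng* had none. Read on both strands, 3 of the 8 held GTGGGAA, namely *Lfng*, *Aph1a* and, at one of its starts, *Psen2*. Of all 27025 genes with a window, 1958 or 7.25% held it. The match in *Aph1a* begins 4 bases before its start, and that in *Psen2* lies 89 bases before it on the strand opposite to the gene. *Hes5*, a classical Notch target whose window holds 2 matches, is set beside them for comparison with the one nearer its start. Each line gives 30 bases on the strand of the gene, which is the minus strand for *Psen2* and the plus strand for the others, with the match in capitals.
Lfng, chr5:140607220-140607249: tccgtatcccacGTGGGAAggagagatctc
Aph1a, chr3:95893905-95893934: ggccttccggggGTGGGAAttagatgggag
Psen2, chr1:180246022-180246051: agcacaggagacTTCCCACagatgtttatc
Hes5, chr4:154960828-154960857: tggccgccgagtGTGGGAAcggccgcggcg

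A match of these letters is a description of the sequence and not evidence of binding. The member with the largest fall holds the letters, and so do *Aph1a* and *Psen2*, which did not pass the test. Whether the letters bear on how the members moved was not tested.

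The question put to the members was whether the machinery that prepares and cuts the receptor differs in level when JAG1 is lost. *Lfng* fell to 73.3% of its control level in the mutants (95% interval 66.0% to 81.5%), and none of the other 8 members passed the test over all genes. The quasi-likelihood test of edgeR with Benjamini-Hochberg adjustment called 35 of 18459 genes at an adjusted p under 0.05, which is 0.19% of those tested. Of these, 15 were lower in mutants (0.0813%) and 20 were higher (0.108%). All 9 members passed the filter on low counts, and 1 of the 9 was called. At an unadjusted p under 0.05, 3 of the 9 differed, *Lfng* and *Furin* lower and *Aph1b* higher, where 10.6% of all genes did, 4.04% lower and 6.52% higher. In 7 of the 9 the mean was lower in mutants, and the median log2 fold change over the members was -0.05, beside 0.00 over all genes, of which 49.1% were lower in mutants. The members therefore did not move as a block.

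**Figure D1:**
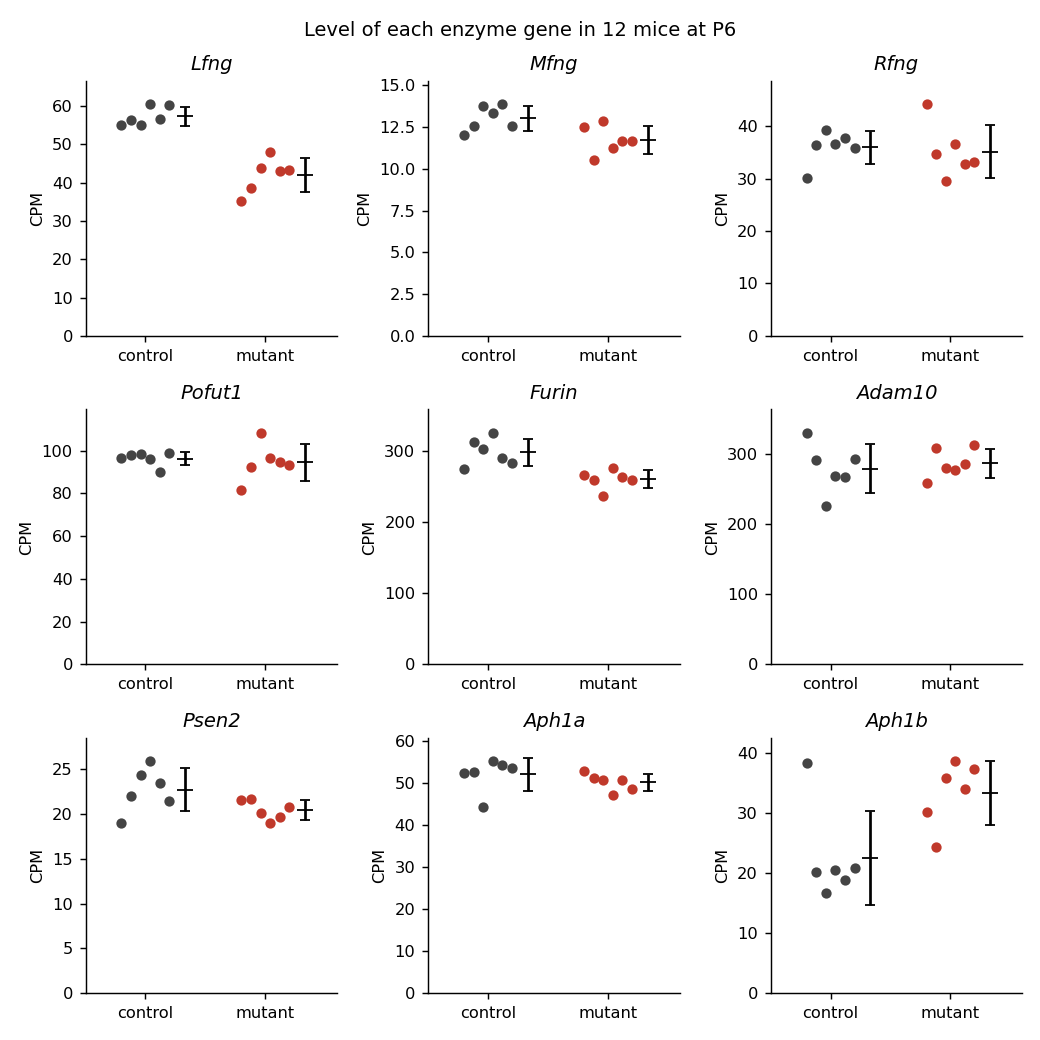
Level of each of the 9 enzyme genes in every mouse, in CPM on axes that start at 0 (grey, 6 controls; red, 6 mutants; each in the order of replicate number). The black bar is the mean ± SD. Only for Lfng do the genotypes stand apart, with all mutants at or under 48.2 CPM and all controls at or over 55.0 CPM, and for Aph1b control 1 lies among the mutants at 38.3 CPM.

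*Lfng* codes for Lunatic fringe. In the 6 controls its lowest, median and highest levels were 55.0, 56.6 and 60.5 CPM, and in the 6 mutants they were 35.2, 43.3 and 48.2 CPM. Every mutant was below every control, a separation in that direction that 0.379% of the genes tested showed, with 0.997% apart in either direction. Controls averaged 57.3 ± 2.50 CPM and mutants 42.0 ± 4.51 CPM (mean ± SD, n = 6 mice of each genotype), a log2 fold change of -0.45 ± 0.07 (SE) that the quasi-likelihood test of edgeR called (adjusted p = 0.0204). The exact two-sided permutation test over all divisions of the 12 mice into 6 and 6 gave p = 0.00216, the smallest it can give. In a dissected tissue, fewer cells that make *Lfng* and less *Lfng* RNA per cell cannot be told apart. The study reported a substantial loss of Hensen's cells, a kind of supporting cell, in mutants of this genotype at P6. The part of that loss in the *Lfng* difference was not tested. The mutants varied more than the controls, with a coefficient of variation of 10.7% against 4.36%, and mutants 1 and 2 were the lowest of the 12 mice at 35.2 and 38.6 CPM.

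The call on *Lfng* lay near its threshold in the main edgeR fit (adjusted p = 0.0204), as it did with limma-voom (adjusted p = 0.0222). In a DESeq2 fit that called 619 genes, *Lfng* had an adjusted p of 9.97e-07. Over 12 fits that each lacked 1 mouse, its log2 fold change stayed between -0.49 and -0.40, but the adjusted p (edgeR) passed the threshold in 6 of them, and rose to 0.0625, 0.0560, 0.0557 and 0.0747 without control 2, 4, 5 or 6 and to 0.0578 and 0.0525 without mutant 2 or 6. Once the scores of neurons and of Schwann cells entered the fit, the difference was -0.31 (unadjusted p = 0.00536 by edgeR). It did not pass after adjustment, in a fit in which 1 gene in all was called. With the supporting cell score, which includes *Sox2*, as a covariate it was -0.40 (edgeR unadjusted p = 0.000352, adjusted p = 0.271). After correction for GC content it was -0.41 with an adjusted p of 0.0663. The part of the neural transcripts in the *Lfng* difference was not tested beyond these fits. The 2 mutants with the lowest *Lfng* also had the highest Schwann cell scores, 7.91 and 7.77 in mean log2 CPM, where the 6 controls lay between 4.41 and 6.22. The 6 mutants lay between 6.05 and 7.91, so that this score and genotype are hard to separate in a fit.

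*Mfng*, which codes for Manic fringe, was the least abundant Fringe transcript. Its lowest, median and highest levels were 12.01, 12.98 and 13.9 CPM in controls and 10.6, 11.7 and 12.9 CPM in mutants. The ranges overlapped, although each mutant lay below the control median. The log2 fold change was -0.15 (95% interval -0.30 to 0.01, adjusted p = 0.495 by the quasi-likelihood test of edgeR), so that a level of 81.0% to 100.4% of control is within the interval.

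*Rfng*, which codes for Radical fringe, ran from 30.1 to 39.3 CPM in controls with a median of 36.5 and from 29.6 to 44.2 CPM in mutants with a median of 34.0. The highest value, in mutant 1, and the lowest, in mutant 3, were both in mutants. Its log2 fold change was -0.03 (95% interval -0.23 to 0.16, edgeR adjusted p = 0.955), an interval that spans 85.2% to 112% of the control level.

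Dividing by exon length puts the 3 Fringe transcripts on one scale. In controls *Lfng* stood at 22.9 ± 0.996 CPM per kilobase, *Rfng* at 14.5 ± 1.26 and *Mfng* at 4.59 ± 0.27 (SD, n = 6). In mutants the levels were 16.8 ± 1.80, 14.1 ± 2.003 and 4.14 ± 0.29. The order was thus the same in the means of both genotypes, but in mutant 1 *Rfng*, at 17.7 CPM per kilobase, exceeded *Lfng* at 14.1. The sum of the 3 was 38.3 to 43.6 CPM per kilobase in controls and 33.1 to 37.9 in mutants. These ranges did not overlap, by a narrow margin (37.85 in mutant 4 and 38.27 in control 1). *Lfng*, which was apart by itself, is the largest part of that sum, and *Rfng* and *Mfng* each overlapped. The separation of the sum is therefore not a result beyond that of *Lfng*. *Lfng* made up 54.6% ± 2.13 of that sum in controls and 47.9% ± 4.76 in mutants, and *Rfng* 34.4% ± 1.90 and 40.2% ± 4.84, ranges that overlapped for both genes.

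**Figure D2:**
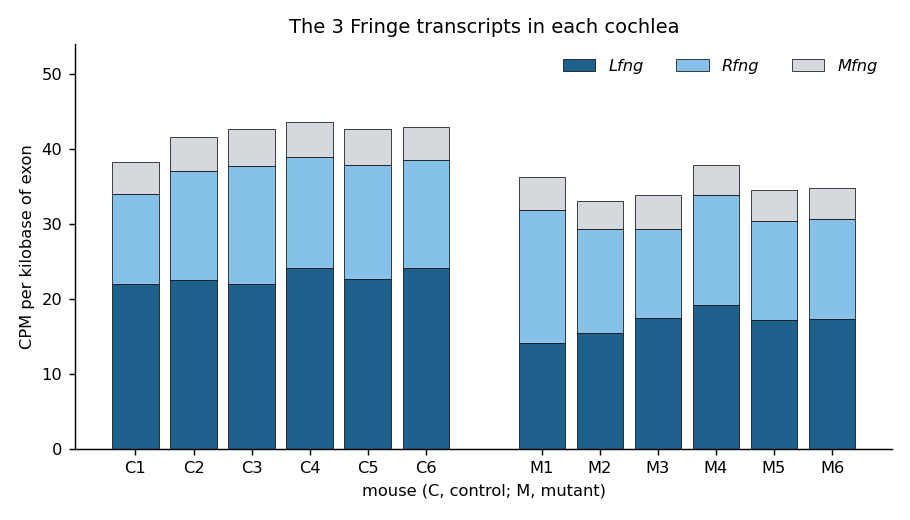
Stacked levels of the 3 Fringe transcripts in each mouse, in CPM per kilobase of exon (C, control; M, mutant). The summed height falls from a mean of 41.9 in controls to 35.0 in mutants, mostly through the dark Lfng section, and in mutant 1 the Rfng section is the larger.

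A ratio within a library does not depend on how libraries are scaled, and 4 such ratios between members were compared by exact two-sided permutation, with p-values adjusted over the 4. The ratio of *Lfng* to *Mfng* CPM was 3.99 to 4.80 in controls and 2.82 to 4.28 in mutants, a log2 difference of -0.30 (exact permutation p = 0.00649, adjusted p = 0.013). The ratio of *Lfng* to *Rfng* was 1.40 to 1.83 in controls and 0.798 to 1.48 in mutants, a log2 difference of -0.41 (exact permutation p = 0.00433, adjusted p = 0.013). *Lfng* therefore fell relative to both other Fringe transcripts, with some overlap of the mice in each case. *Lfng* entered both ratios after its own difference was known, and they are not independent of it.

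*Pofut1* codes for the enzyme that adds the fucose on which the Fringe enzymes work. It ran from 90.2 to 98.7 CPM in controls with a median of 97.3 and from 81.8 to 108 CPM in mutants with a median of 94.0. Both extremes were again in mutants, mutant 1 at the low end and mutant 3 at the high end. The log2 fold change of -0.03 had a 95% interval of -0.16 to 0.11 (edgeR adjusted p = 0.947), which spans 89.6% to 108% of the control level. Its gene lies on chromosome 2, as *Jag1* does. *Poglut1*, which adds O-linked glucose to the same repeats and is a partner outside the 9, differed by -0.05 on the log2 scale (edgeR adjusted p = 0.888).

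Among the other genes that build or carry sugars for Notch, 14 were tested, none was called, and *Fuk*, a fucose salvage kinase, had an unadjusted p under 0.05 (log2 fold change -0.15, edgeR adjusted p = 0.356). Their median log2 fold change was -0.06. As 0.19% of all genes tested were called, the lack of a call says little about these sugar-adding steps.

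*Furin*, the convertase of the Golgi, was among the abundant members. In controls its lowest, median and highest levels were 274, 296 and 326 CPM, and in mutants 237, 262 and 277 CPM. All mutants lay below the control median, and the ranges touched only because control 1, at 274 CPM, was below mutant 4, at 277 CPM. Controls averaged 298 ± 19.3 CPM and mutants 260 ± 13.1 (SD), 87.3% of control with a 95% interval of 79.8% to 95.5%. The log2 fold change of -0.20 (SE 0.06) passed unadjusted (p = 0.00568) but not over all genes (adjusted p = 0.165, quasi-likelihood test of edgeR), and the exact permutation test gave p = 0.00433. Among the alternative analyses *Furin* was called by DESeq2 alone, with an adjusted p of 0.0196, a fit that called 619 genes. DESeq2 is also the tool that the study itself used to compare the genotypes. The difference failed the correction over all genes in the main test and is reported as such. The annotation places an antisense gene over 118 bases or 1.3% of the exons of *Furin*, and whether reads were counted by strand is not given in the sources used here. Of 8 other convertase genes tested, none had an unadjusted p under 0.05, and their median log2 fold change was -0.07. As 10.6% of all genes had such a p, the lack of one among 8 says little.

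*Adam10*, the protease that makes the ligand-dependent cut, was the most abundant member per length, at 56.9 ± 7.10 CPM per kilobase in controls. It ran from 226 to 330 CPM in controls with a median of 280 and from 258 to 313 CPM in mutants with a median of 283. The mutants fell inside the range of the controls. Its log2 fold change was 0.04 (95% interval -0.14 to 0.22, edgeR adjusted p = 0.941), or 90.7% to 116% of the control level. *Adam17*, a related surface protease, differed by -0.08 (log2, edgeR adjusted p = 0.732). Of 15 genes for other ADAM proteases and the tetraspanins and rhomboid-like proteins that escort them, *Tspan14* was lower (log2 fold change -0.13) and *Tspan17* higher (0.29) at an unadjusted p under 0.05, and neither was called (edgeR adjusted p = 0.334 and 0.419). Of all genes tested, 10.6% had an unadjusted p under 0.05. The ratio of *Furin* to *Adam10* differed by -0.24 on the log2 scale (exact permutation p = 0.0606, adjusted p = 0.0606), which did not pass the threshold; without control 1 it was -0.31 with an adjusted permutation p of 0.0152.

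Gamma-secretase has 4 kinds of subunit: a presenilin, which is the catalytic part, nicastrin, an APH1 scaffold and the presenilin enhancer. *Psen2*, which codes for presenilin 2, ran from 19.0 to 25.9 CPM in controls with a median of 22.8 and from 19.0 to 21.7 CPM in mutants with a median of 20.4. Each mutant was below the control median, and control 1, at 19.0 CPM, was as low as the lowest mutant. Their mean differed by -0.15 on the log2 scale (95% interval -0.31 to 0.01, edgeR adjusted p = 0.521), or 80.5% to 100.7% of control.

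*Aph1a*, the main APH1 scaffold, ran from 44.3 to 55.2 CPM in controls with a median of 53.1 and from 47.1 to 52.9 CPM in mutants with a median of 50.7. The mutants lay within the range of the controls, whose lowest value, 44.3 CPM in control 3, stood apart from the other 5. Mutants differed from controls by -0.05 on the log2 scale (95% interval -0.18 to 0.08, edgeR adjusted p = 0.866), or 88.1% to 105% of control. On the opposite strand *Car14* shares 445 bases or 12.9% of its exons. The gene lies on chromosome 3, as *Sox2* does.

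*Aph1b*, a second scaffold, had the widest spread of the 9 relative to its mean (coefficient of variation 35.1% in controls) and the largest rise in mean. In controls its lowest, median and highest levels were 16.6, 20.2 and 38.3 CPM, and in mutants 24.3, 34.9 and 38.6 CPM. Controls 2 to 6 lay at or under 20.7 CPM and below every mutant, whereas control 1, at 38.3 CPM, was higher than 5 of the 6 mutants. Controls averaged 22.5 ± 7.89 CPM and mutants 33.4 ± 5.34 (SD), and the log2 fold change of 0.57 (SE 0.18) corresponds to 149% of control with a 95% interval of 113% to 195%. The unadjusted p was 0.00803 and the adjusted p 0.199 by the quasi-likelihood test of edgeR, so *Aph1b* was not called. Without control 1 the difference grew to 0.78 on the log2 scale (edgeR adjusted p = 0.0131), and *Aph1b* would then be called. The deposited title of control 1 ends in "cr", where those of the other controls end in "ctr". Its description names it a wild-type control like the others, and it was kept.

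*Aph1c*, the mouse paralog that neighbours *Aph1b* on the minus strand of chromosome 9 (GRCm38 chr9:66814994-66834726 against chr9:66775202-66795490), did not share this pattern. It ran from 18.6 to 22.8 CPM in controls and from 17.7 to 24.4 CPM in mutants, with 21.7 CPM in control 1, and its log2 fold change was -0.04 (95% interval -0.22 to 0.14, edgeR adjusted p = 0.940). Because the pair are close copies, the split of reads between them is uncertain. The ratio of *Aph1a* to *Aph1b* was 1.37 to 2.89 in controls and 1.22 to 2.11 in mutants, a log2 difference of -0.66 (exact permutation p = 0.0173, adjusted over the 4 ratios p = 0.0231). The remaining subunits *Ncstn*, which binds the substrate, and *Psenen* had log2 fold changes of -0.08 and -0.06 (edgeR adjusted p = 0.867 and 0.927). Of the 3 gamma-secretase genes outside the 9 that are given here, none had an unadjusted p under 0.05. As 10.6% of all genes had such a p, the lack of one among 3 says little.

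**Figure D3:**
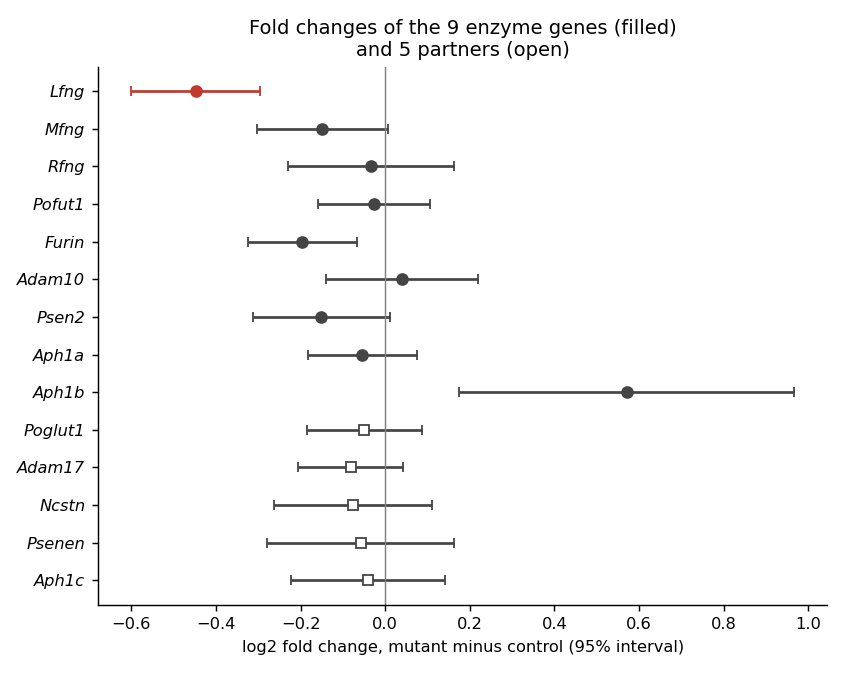
Log2 fold change, mutant minus control, with its 95% interval from edgeR, for the 9 enzyme genes (filled circles) and 5 partner genes (open squares). Lfng, in red, is the one called, at -0.45, the interval of Furin lies below 0 and that of Aph1b above 0 without an adjusted p under 0.05, and the intervals of the other 11 genes cross 0.

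The genes whose level followed *Aph1b* from mouse to mouse were looked up after its spread was seen. With the mean of each genotype removed, the 5 genes with the highest Pearson correlation of log2 CPM over the 12 mice were *Mns1* (r = 0.953), *Cyb5r4* (0.874), *Plscr4* (0.873), *Nxpe2* (0.860) and *Rpl29* (0.855). Spearman's rho was lower for each, at 0.902, 0.741, 0.706, 0.804 and 0.685 in the same order. All of these genes lie on chromosome 9, as *Aph1b* does. So did 7 of the 10 most alike, where chromosome 9 holds 851 or 5.74% of the 14824 genes compared, and of the 68 genes with an r of at least 0.8 in either direction 13 or 19.1% were on it. *Rpl29*, a ribosomal protein gene, ran between 12.6 and 17.6 CPM in controls 2 to 6 and stood at 56.3 CPM in control 1. In mutants it stood at 13.4 CPM in mutant 2 and between 49.9 and 68.3 CPM in the other 5. The same mice, control 1 and mutant 2, thus stood with the other genotype for *Rpl29*, and mutant 2 was also the lowest mutant for *Aph1b* at 24.3 CPM. *Mns1* stood at 2.85 CPM in control 1 and at 1.38 to 1.71 CPM in the other controls. The correlations share the libraries and their depth and carry no test, and the reason that genes of chromosome 9 varied together was not tested.

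**Figure D4:**
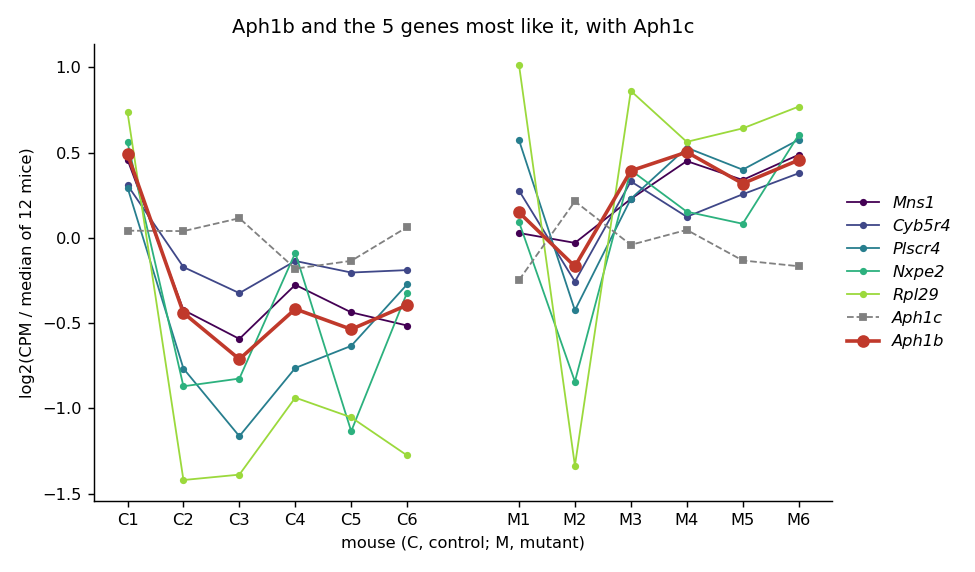
Log2 of CPM over the median of the 12 mice for Aph1b (thick red), the 5 genes most like it and its neighbour Aph1c (dashed grey), in each mouse (C, control; M, mutant). Aph1b and the 5 genes are high in control 1 and low in mutant 2 against their own genotype, whereas Aph1c stays near 0.

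For *Lfng* the 5 genes chosen by the same measure were *Vgll4* (r = 0.938), *Bivm* (0.930), *Sall1* (0.916), *Draxin* (0.907) and *Smyd4* (0.8995), over 12 mice. They lie on 5 different chromosomes, none of them that of *Lfng*. None was called between the genotypes, with log2 fold changes from -0.17 for *Draxin* to 0.13 for *Bivm* and edgeR adjusted p-values of 0.598 for *Vgll4* and 0.713 for *Bivm*.

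Control 1 was the lowest of the 6 controls for *Mfng*, *Rfng*, *Furin* and *Psen2* and the highest for *Adam10* and *Aph1b*. It also had the highest neuron and Schwann cell scores of the controls, 3.54 and 6.22 in mean log2 CPM, and the smallest library. Within a genotype, *Lfng* and *Furin* were set against *Jag1* and against the supporting cell, neuron and Schwann cell scores, 16 relations in all, and none passed after adjustment (lowest adjusted exact permutation p = 0.133 for Pearson's r and 0.700 for Spearman's rho). The relation with the smallest p was that of *Lfng* with the Schwann cell score in mutants (n = 6, r = -0.921, exact permutation p = 0.00833, rho = -0.771, exact permutation p = 0.103), and r was -0.60 without the 2 mice farthest from the median score. *Lfng* against *Jag1* in the mutants gave r = 0.789 (n = 6, exact permutation p = 0.0722, adjusted p = 0.344), with rho = 0.314 (exact permutation p = 0.564, adjusted p = 0.878) and r = 0.490 without the 2 farthest mice.

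Per length and in controls, the members ranked *Adam10* (56.9 CPM per kilobase), *Furin* (32.5), *Lfng* (22.9), *Aph1a* (15.1), *Rfng* (14.5), *Pofut1* (9.72), *Psen2* (5.25), *Mfng* (4.59) and *Aph1b* (4.36). The neighbours *Aph1a* and *Rfng*, with SDs of 1.14 and 1.26, did not differ beyond their spread, nor did *Mfng* and *Aph1b*, with SDs of 0.27 and 1.53. The length used decides part of this order, since with the longest transcript in place of all exons *Pofut1* stood at 17.2 CPM per kilobase, above *Rfng* at 14.6. By that length *Furin* stood at 52.0 CPM per kilobase, *Aph1a* at 18.2, *Psen2* at 11.3 and *Mfng* at 6.99, so that the level per length of *Psen2* depends on it most.

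The rest of the pathway gives the setting of these values. Of 9 ligand and receptor genes *Jag1* alone was called (log2 fold change -1.48, edgeR adjusted p = 0.000258). Of 14 nuclear effectors and targets *Hey1*, a Notch-induced repressor, was called (log2 fold change -0.74, edgeR adjusted p = 0.00204), and *Hes5* (-1.36, adjusted p = 0.0958) and *Heyl* (-0.23, adjusted p = 0.129) were lower at an unadjusted p under 0.05 without being called. *Hey1* ran from 43.9 to 56.6 CPM in controls and from 25.7 to 34.3 CPM in mutants, and so stood apart between the genotypes as *Lfng* did. Of 16 ubiquitin ligases and trafficking regulators none was called, and *Neurl1b* was lower at an unadjusted p under 0.05 (log2 fold change -0.26, edgeR adjusted p = 0.415). *Jag1*, *Hey1* and *Lfng* were thus lower in mutants, and no member that fucosylates or cuts the receptor was called. As 0.19% of all genes tested were called, the lack of a call says little about these members. *Furin* was lower (edgeR unadjusted p = 0.00568) and *Aph1b* higher (0.00803) before adjustment.

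Beside these values, markers of other cells moved with genotype. Of 12 neuron markers 11 were higher in mutants at an unadjusted p under 0.05 (median log2 fold change 2.63), as were 11 of 12 Schwann cell markers (1.59), and 7 of 12 macrophage markers were lower (-0.23). The rise of *Prph* rests on its highest mutant, at 155 CPM, since the mutant median of 0.888 CPM was below the control median of 0.927. For *Scn9a* the mutant median was 1.75 CPM and the highest mutant stood at 59.5 CPM, beside a control median of 0.278. Among 12 supporting cell markers *Sox2* and *S100a1* were lower (median of the list -0.09), and among 12 hair cell markers *Pvalb* was higher (median of the list 0.01). Mesenchyme markers had 2 of 12 lower (*Dcn* and *Car3*), and markers of dividing cells and of the stria vascularis had none. Of all genes tested, 4.04% were lower and 6.52% higher at an unadjusted p under 0.05 (edgeR). No marker of any list was called. As 0.19% of all genes tested were called, the lack of a call says little about these markers.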

How the data were processed

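RNA-seq (single-end reads of 100 nt) was measured in 6 mutant and 6 control mice, grouped by the genotype in the labels. The table that the authors deposited gives whole-number counts for each gene symbol and mouse, not normalized or pooled. The submitters' processing notes name Trimmomatic 0.32, STAR 2.4.2a, HTSeq 0.9.1, DESeq2 1.10.1 and GRCm38.p4, and the settings and strand mode are not given in the sources used here. A second deposited table holds the authors' means, fold changes and p-values and was not used.

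Genes averaging 5 or more counts over the 12 libraries were kept and compared with edgeR 4.0.16 (R 4.3.3; TMM, robust quasi-likelihood F-test, Benjamini-Hochberg, adjusted p under 0.05), after a check on simulated data. Single genes were compared by exact permutation of log2(CPM + 0.1), and ratios by exact permutation of the log2 ratio of CPM with nothing added. Scores are mean log2 CPM of markers (prior count 2). Named genes are the 9 members, *Jag1*, called genes of the pathway lists, the gamma-secretase genes (1 is not reported here), *Poglut1*, *Adam17* and the 5 genes most like *Lfng* (mean CPM at least 1); others were chosen after their values were seen. The members and lists were chosen with earlier results of these data known. Of the listed symbols, 4, newer synonyms of others listed, had no row. Coordinates and exon lengths are from GENCODE M21, which matched 94.7% of symbols. Alternatives were DESeq2 1.42.0, limma-voom (limma 3.58.1), other normalizations and filters, covariates, GC correction, a replicate block and leaving out each mouse. Depth was 28498549 to 36134983 counts per library. Members had at least 337 counts in every library. The parts of counting error and of differences between mice in the spread were not separated, and for the members with the fewest counts, such as *Mfng*, counting error is not negligible. The series' design text calls the mice biological replicates.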

Additional observations from a re-analysis of the deposited data

Results flagged for a closer look

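In 32 groups of 6 mice, the 9 members and their partners in each genotype among them, the highest or lowest mouse was compared with the rest by Dixon's criterion, and 4 stood apart. Chance alone gives about 5% of groups. *Aph1b* stood at 38.3 CPM in control 1, where the other controls lay between 16.6 and 20.7 CPM. *Aph1a* stood at 44.3 CPM in control 3, where the others lay between 52.4 and 55.2 CPM. Control 5 was the lowest control for 2 of these genes, at 90.2 CPM for *Pofut1* (others 95.9 to 98.7) and 126 CPM for *Adam17* (others 141 to 144). The causes were not tested.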

How the results depend on the processing

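The number of genes called moved most. Beside the 35 of the main test it was 619 with DESeq2, 19 with limma-voom, 57 without a filter, 131 with the replicate block, 1 with the neuron and Schwann cell scores, 8 with the supporting cell score and 23 with the *Xist* level as covariate, and 14 to 356 when a mouse was left out. The 356 came without mutant 5, 66 without mutant 4 and 54 without mutant 1; 14 came without control 2 or control 6, 15 without control 5 or mutant 6, 17 without control 4 or mutant 2 and 22 without control 3. *Lfng* kept its direction in all alternatives and was past the threshold in 8 of 11, the range of log2 fold changes being -0.45 to -0.31. It was not past it with the neuron and Schwann cell scores (-0.31), the supporting cell score (-0.40) or the GC correction (-0.41). Leaving out a mouse gave -0.49 to -0.40 for *Lfng*.

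Small differences changed sign: *Pofut1* to 0.055 and *Adam10* to -0.074 with the neuron and Schwann cell scores, and *Aph1a* to 0.0028 with the supporting cell score. Leaving out a mouse gave -0.070 to 0.012 for *Pofut1*, -0.11 to 0.011 for *Rfng* and -0.015 to 0.087 for *Adam10*. The cause was not tested.

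Mice with the same replicate number did not deviate together in all pairs (r from -0.187 to 0.272, above 0.1 in 3 of 6 pairs). The numbers are therefore not taken as pairs. The litter of each mouse is not given in the sources used here and was not part of any fit. With the replicate block, as sign flips within numbers, the log2 ratios of *Lfng* to *Mfng* (-0.30), *Lfng* to *Rfng* (-0.41) and *Aph1a* to *Aph1b* (-0.66) each had an adjusted p of 0.125 by exact permutation, where the smallest unadjusted p that 6 pairs allow is 0.0312. The block made *Lfng* neither lose its call nor change direction. Leaving out a mouse gave -0.31 to -0.18 for *Furin* to *Adam10*, and past the threshold only without control 1.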
